A study of Mus musculus with 12 samples.

Results

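The genes described here are 10 activity effector genes, which neurons switch on after firing and whose products act mostly at synapses and in signalling: Arc, Npas4, Nptx2, Homer1, Dusp1, Dusp6, Btg2, Ier2, Sik1 and Gadd45b. They were taken by symbol from the gene names of the FPKM tables (fragments counted relative to transcript length and library size) and matched by gene ID to the count table. All 10 had FPKM values, 9 had a row in the count table out of 35775 genes, and the 9 passed the filter on low counts with 16163 genes in all. Npas4 was read in FPKM alone, and its counts were not analysed here.

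Hippocampal RNA was taken from 12 males of strain C57BL/6 at an age of 8 weeks, in 4 groups of 3 mice. F0_Ctl were normal mice, F0_Dep were mice made depressive by stress, F1_Ctl were sons of normal males and F1_Dep were sons of males made depressive by stress. The stress protocol and the handling before tissue collection were not given in the sources used here, and no father or litter is named, so sons within a group may share one. FPKM values were used for the 9 libraries of F0_Ctl, F0_Dep and F1_Dep, while counts covered all 12.

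Neuronal firing lets calcium into the cell, and kinases downstream of it act on transcription factors already bound to DNA, such as CREB and SRF, so that a set of genes is transcribed within minutes without new protein synthesis. In the hippocampus the best known of these genes is Arc, whose protein takes AMPA receptors off the synaptic surface. Several others close the loop: Dusp1 and Dusp6 remove the phosphates that activate MAP kinases, and Sik1 phosphorylates the CREB coactivators and keeps them out of the nucleus.

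The promoters are shown first, and the motifs searched include the CRE, the DNA element to which CREB binds. A RefSeq table on GRCm38.p6 gave 7 promoter windows for 6 of the 10 members. Arc, Nptx2, Ier2 and Sik1 were not matched. Each window was read over the 250 bases before the annotated start on both strands, for the full CRE (TGACGTCA), the short CRE (TGACG, which the full CRE holds once on each strand), a TATA box (TATAAA), the EGR site (GCGGGGGCG) and the CArG box, the SRF element. Capitals mark any of these matches. Homer1 (chr13:93303507-93303756, plus strand) and Dusp6 (chr10:99262981-99263230, plus strand) are printed as members whose F1_Dep libraries all lay above those of F1_Ctl, Dusp1 (chr17:26508520-26508722, minus strand) as a member among the largest in fold change, and Btg2 (chr1:134079156-134079405, minus strand) because it holds a full CRE and was lower in F1_Dep than in F1_Ctl, a choice made after its values were seen. For Dusp1 the last 47 bases before the start are left out because a GENCODE M21 exon covers them.
Homer1: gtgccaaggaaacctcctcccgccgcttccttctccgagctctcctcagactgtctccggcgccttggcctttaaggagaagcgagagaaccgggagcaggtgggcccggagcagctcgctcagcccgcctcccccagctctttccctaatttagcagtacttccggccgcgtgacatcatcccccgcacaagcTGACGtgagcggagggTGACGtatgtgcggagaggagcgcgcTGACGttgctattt
Dusp1: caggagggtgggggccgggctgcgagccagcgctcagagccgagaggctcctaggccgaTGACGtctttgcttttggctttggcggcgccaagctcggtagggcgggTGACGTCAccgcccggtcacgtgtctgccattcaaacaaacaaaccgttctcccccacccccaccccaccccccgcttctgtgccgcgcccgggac
Dusp6: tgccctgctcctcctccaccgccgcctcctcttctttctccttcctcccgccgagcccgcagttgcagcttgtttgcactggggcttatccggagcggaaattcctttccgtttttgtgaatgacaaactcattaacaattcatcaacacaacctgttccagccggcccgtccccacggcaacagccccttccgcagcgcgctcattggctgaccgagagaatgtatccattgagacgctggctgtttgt
Btg2: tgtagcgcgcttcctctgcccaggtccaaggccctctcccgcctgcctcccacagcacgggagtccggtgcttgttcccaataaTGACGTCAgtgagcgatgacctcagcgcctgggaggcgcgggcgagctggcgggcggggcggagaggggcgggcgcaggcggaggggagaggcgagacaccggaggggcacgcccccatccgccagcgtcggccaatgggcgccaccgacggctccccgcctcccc

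The Homer1 window held the short CRE at 3 places, -56, -40 and -14 counted from the start, none of them within a full CRE. Dusp1 held a full CRE from -143 to -136 and a further short CRE at -191. In Btg2 a full CRE lay from -166 to -159. The full CRE was found in 1.55% and the short CRE in 17.8% of 32851 promoter windows of the same length, and 0.688% held 3 or more short matches. Npas4, whose window a GENCODE exon covers and which is therefore not printed, held the short CRE at -179 and -169. Gadd45b held a TATA box at -46, a motif present in 12.4% of windows. Dusp6 and a second Homer1 window held none of these motifs, and none of the 7 windows held an EGR site (2.57% of windows) or a CArG box (1.47%). A match is a run of letters, and nothing about binding was measured.

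The genes are short. Their longest coding transcripts span a median of 4104.5 bases on the genome and hold a median of 4 exons, against 15820 bases and 7 exons over 21866 coding genes of GENCODE M21. Of the 10 members 7 span under 10000 bases, as do 37.9% of coding genes. Arc lies on chromosome 15 from 74669083 to 74672570 with 3 exons, and Ier2 on chromosome 8 from 84661331 to 84662852 with 1 exon. Homer1 is the exception in transcript span, at 55968 bases. Its gene lies on chromosome 13 from 93299635 to 93405129 with 11 annotated coding transcripts. The annotated bounds of Dusp1 are wide too, from 26505590 to 26562128 on chromosome 17, though its longest coding transcript spans 2930 bases. Within these bounds Dusp1 overlaps Ergic1, a coding gene on the other strand. Homer1 makes a short activity-induced form and long scaffold forms, and the gene-level values used here do not tell them apart.

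Levels per length were compared in FPKM over the 9 libraries. Arc stood first with a median of 94.4 FPKM (range 38.1 to 166), followed by Homer1 with 39.9 FPKM and Dusp6 with 34.7 FPKM. Arc was above Homer1 in 9 of 9 libraries, and Homer1 above Dusp6 in 8 of 9. Nptx2 followed at a median of 15.3 FPKM, Dusp1 at 9.39 and Gadd45b at 7.63, and Dusp1 and Gadd45b were not separated, since Dusp1 was the higher in 5 of 9 libraries. Btg2 at 6.69, Ier2 at 5.58 and Npas4 at 5.06 FPKM also overlapped in range, and Sik1 was lowest at 2.4 FPKM, below Npas4 in 9 of 9 libraries.

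Over the whole table, library totals ran from 18277200 to 23083700 expected counts, and the members' own counts from 92 (Ier2 in F0_Dep 3) to 12362 (Arc in F1_Dep 2). Mitochondrially encoded genes took 7.75 to 9.26% of the counts in F0_Ctl, 5.09 to 5.32% in F0_Dep, 7.45 to 10.9% in F1_Ctl and 6.7 to 7.17% in F1_Dep, and the part of this in the members' values was not tested. Markers of cell types within the hippocampus and of neighbouring tissue differed between libraries. The summed level of 11 dentate granule markers, genes of the granule neurons in which Arc is strongly inducible, ran from 436 to 853 CPM (counts scaled to library size) in F1_Dep and from 921 to 1400 CPM in the other groups. That of 11 striatal markers ran from 339 to 1670 CPM in F1_Dep and from 255 to 344 in the others, the highest in F1_Dep 1. Choroid plexus markers, 11 genes of the tissue that secretes cerebrospinal fluid, summed to 3640 to 6240 CPM in F1_Dep, to 157 to 492 CPM in F0_Dep, to 175 to 6480 in F0_Ctl and to 335 to 12400 CPM in F1_Ctl, and all 12 pyramidal markers were above 1 CPM in every library. The labels of the F1_Ctl libraries carry a sequencing lane and the others do not, so sequencing and group cannot be told apart for F1_Ctl. In bulk tissue fewer cells of a type and less RNA per cell cannot be told apart either.

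**Figure D1:**
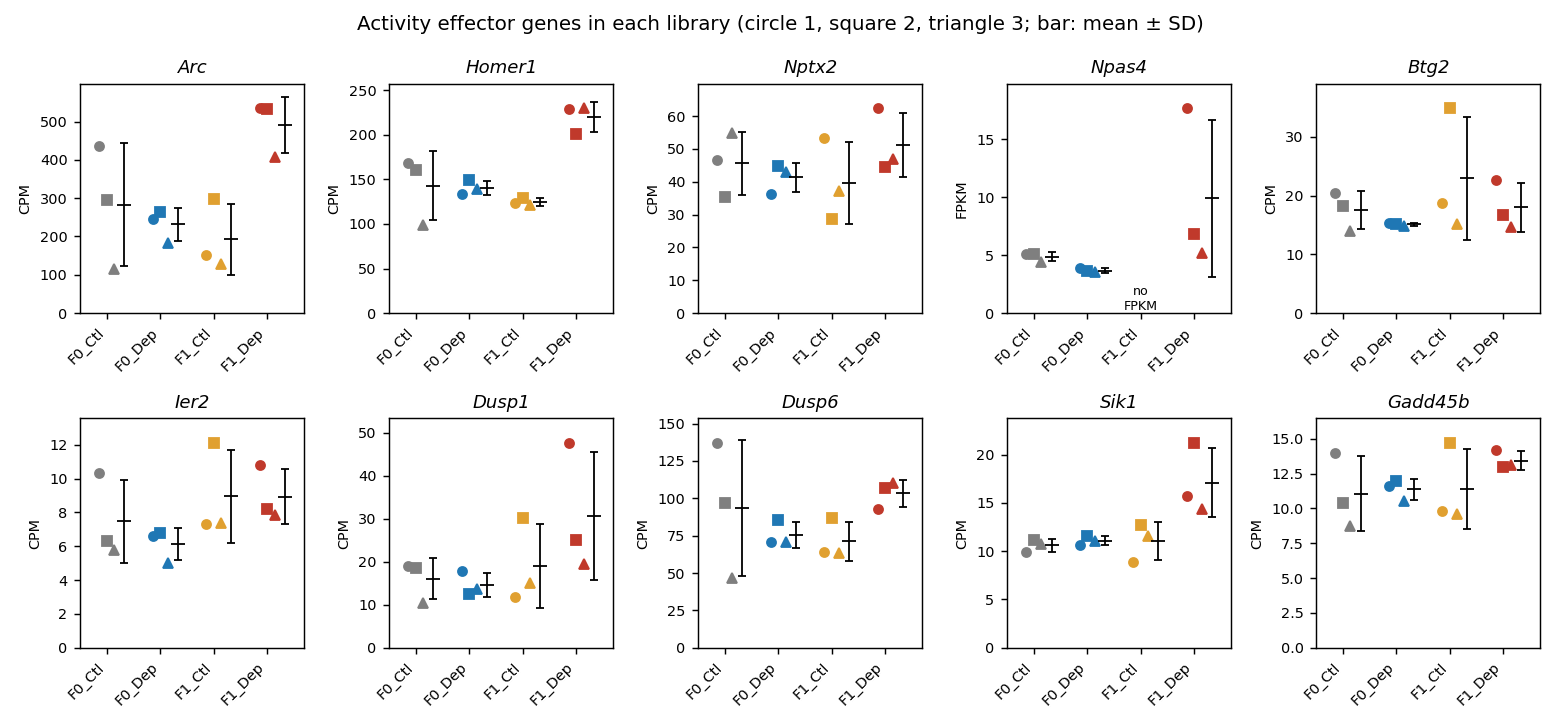
Level of each member in each library, in CPM (Npas4 in FPKM), with circles, squares and triangles for replicates 1, 2 and 3 and the mean ± SD (n = 3) beside them. The F1_Dep libraries of Arc (408 to 535 CPM) and Homer1 (201 to 230 CPM) lie above the F1_Ctl libraries, and F1_Dep 1 stands alone for Dusp1 and Npas4.

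The first group of members acts at the synapse. In the hippocampus of F1_Dep mice Arc and Homer1 were measured at higher levels than in F1_Ctl, with groups that did not overlap, but neither passed the test across all genes with edgeR.

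Arc was measured at 436, 296 and 116 CPM in F0_Ctl, 246, 264 and 184 CPM in F0_Dep, 151, 299 and 127 CPM in F1_Ctl, and 535, 532 and 408 CPM in F1_Dep. The F1_Dep libraries were all above those of F0_Dep and F1_Ctl, and 2 of the 3 were above every other library, while F0_Ctl alone ran from 116 to 436 CPM. F0_Ctl averaged 282 ± 161 CPM, F0_Dep 232 ± 42.3, F1_Ctl 193 ± 93.1 and F1_Dep 492 ± 72.3 (SD, n = 3). The log2 fold change of F1_Dep against F1_Ctl was 1.35 ± 0.41 (SE, 95% confidence interval 0.45 to 2.25), with an unadjusted p of 0.00663 and an adjusted p of 0.169 by edgeR's quasi-likelihood test. Against F0_Dep it was 1.09 ± 0.41 with an adjusted p of 0.152 by edgeR. Of 19 alternatives there 5 passed, and the adjusted p ran from 0.00206 to 0.378 over edgeR, DESeq2, voom and limma. F0_Dep against F0_Ctl gave -0.29 ± 0.41 with an adjusted p of 0.732 by edgeR.

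Homer1, whose long forms tie metabotropic glutamate receptors to the postsynaptic scaffold and whose short form loosens that tie, was measured at 169, 161 and 98.4 CPM in F0_Ctl and 134, 149 and 139 CPM in F0_Dep. It stood at 124, 129 and 121 CPM in F1_Ctl and at 229, 201 and 230 CPM in F1_Dep. Its 3 highest libraries of 12 were the F1_Dep libraries, a pattern shared by Sik1 among the 9 members in counts. The share of all genes with this pattern is not given here. For Homer1 F1_Dep exceeded F1_Ctl by 0.82 ± 0.16 on the log2 scale (95% confidence interval 0.47 to 1.17). The unadjusted p was 0.000295 and the adjusted p 0.0674 by edgeR, the smallest adjusted p of any member in that comparison. DESeq2 gave 0.83 with an adjusted p of 0.00041, and over 16 alternatives the adjusted p ran from 0.00041 to 0.22, with 5 past the threshold. Leaving out F1_Ctl 1 was among them, with an adjusted p of 0.0443 by edgeR. Against F0_Dep the log2 fold change of Homer1 was 0.64 ± 0.16, with an adjusted p of 0.0523 by edgeR. Of 19 alternatives there 7 passed, and the adjusted p ran from 0.00114 to 0.192 over edgeR, DESeq2, voom and limma.

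Homer1 was also the member for which counts and FPKM differed most. Its FPKM values were 32.4, 38.3 and 21.7 in F0_Ctl, 38.8, 42.9 and 39.9 FPKM in F0_Dep and 55.6, 51.8 and 59.3 FPKM in F1_Dep. In FPKM the F0_Dep libraries thus lay above all of F0_Ctl, whereas in CPM they lay within them. The log2 fold change of F0_Dep against F0_Ctl was -0.02 ± 0.16 in counts by edgeR and 0.42 ± 0.17 in FPKM by limma, with adjusted p of 0.952 and 0.0938. The ratio of FPKM to CPM was 0.191 to 0.237 in F0_Ctl and 0.286 to 0.29 in F0_Dep, a shift of 0.42 on the log2 scale at percentile 96.4 of 12580 genes, whose 10th and 90th percentiles were -0.29 and 0.3. Ier2 was shifted the other way, by -0.4, at percentile 4.1. What the authors' tools did with Homer1's several transcripts, and its part in this shift, was not tested.

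**Figure D2:**
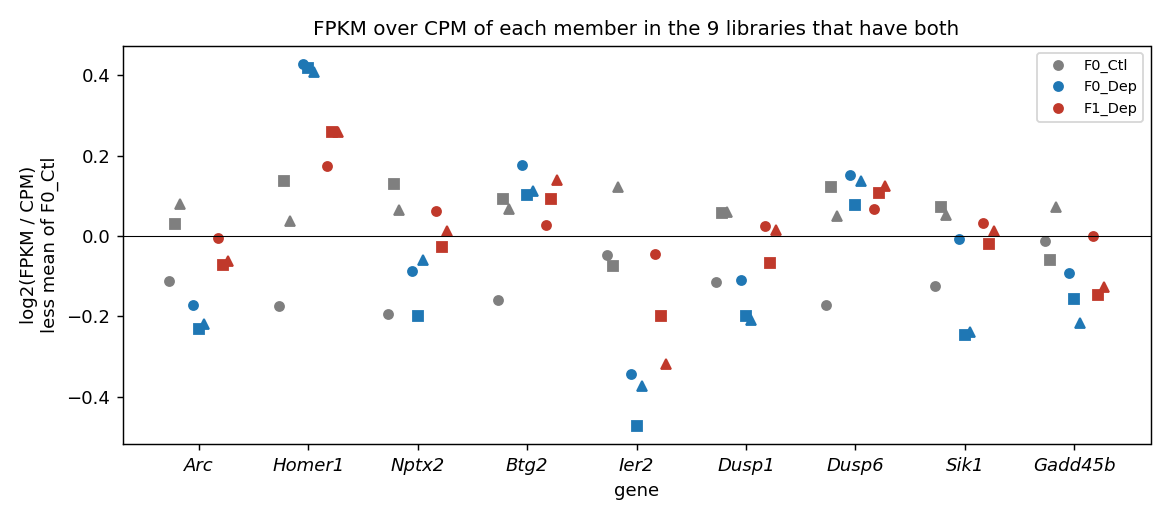
Ratio of deposited FPKM to CPM of each member in the 9 libraries with both, on the log2 scale and less the mean of F0_Ctl, with circles, squares and triangles for replicates 1, 2 and 3. The F0_Dep libraries lie farthest from F0_Ctl for Homer1, shifted by 0.42, and for Ier2, shifted by -0.4.

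Nptx2, a secreted pentraxin that gathers AMPA receptors at synapses on interneurons, varied within groups about as much as between them. It was measured at 46.6, 35.4 and 54.7 CPM in F0_Ctl, 36.3, 44.8 and 43 CPM in F0_Dep, 53.2, 28.6 and 37.1 CPM in F1_Ctl, and 62.4, 44.5 and 46.8 CPM in F1_Dep. All 4 groups overlapped, and the log2 fold change of F1_Dep against F1_Ctl was 0.37 ± 0.22 (edgeR, adjusted p = 0.469).

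**Figure D3:**
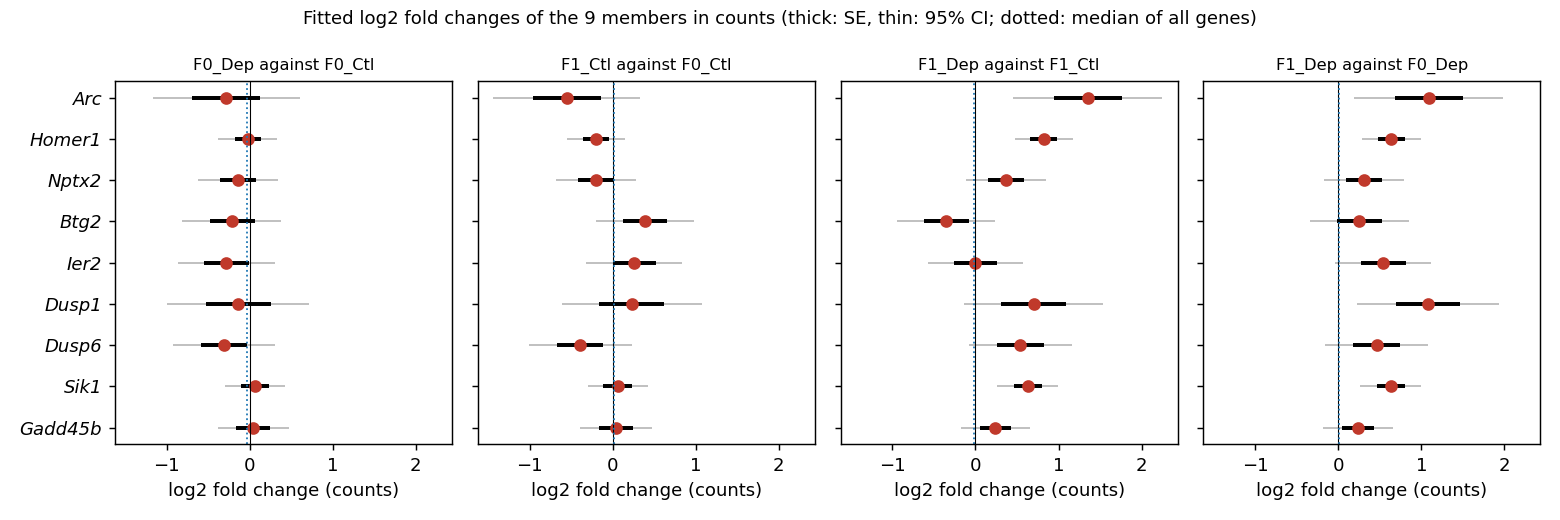
Fitted log2 fold change (x axis) of the 9 members with counts in 4 comparisons, with the SE as a thick and the 95% confidence interval as a thin line and the median of all 16163 genes as a dotted line. Intervals of Arc, Homer1 and Sik1 lie above 0 in F1_Dep against F1_Ctl and against F0_Dep, and all 9 intervals include 0 in F0_Dep against F0_Ctl and in F1_Ctl against F0_Ctl.

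The next members are Npas4, Btg2 and Ier2. Npas4 is a transcription factor restricted largely to neurons that adjusts inhibitory synapses, Btg2 an antiproliferative cofactor of mRNA deadenylation, and Ier2 a nuclear protein of the immediate early class.

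Npas4 was listed at 5.14, 5.06 and 4.44 FPKM in F0_Ctl, 3.9, 3.61 and 3.51 FPKM in F0_Dep, and 17.7, 6.87 and 5.16 FPKM in F1_Dep. The 3 groups did not overlap, with F0_Dep lowest and F1_Dep highest. However, F1_Dep 3 at 5.16 FPKM lay next to F0_Ctl 1 at 5.14, and F1_Dep 1 lay far above the rest. The share of all genes whose FPKM separates the 3 groups in this way is not given here. On the log2(FPKM + 1) scale, which understates changes of low genes, F1_Dep exceeded F0_Dep by 1.05 ± 0.32 (limma, adjusted p = 0.0555) and F0_Ctl by 0.72 ± 0.32 (limma, adjusted p = 0.258). Without F1_Dep 1 these were 0.58 and 0.25, with adjusted p of 0.059 and 0.408 by limma. Without F1_Dep 3 they were 1.38, which passed with an adjusted p of 0.0455 by limma, and 1.05, with an adjusted p of 0.248.

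Btg2 had its highest library in F1_Ctl. It was measured at 20.4, 18.2 and 14 CPM in F0_Ctl, 15.4, 15.1 and 14.8 CPM in F0_Dep, 18.7, 34.9 and 15.2 CPM in F1_Ctl, and 22.7, 16.7 and 14.6 CPM in F1_Dep. It was the one member of 9 with a negative log2 fold change in F1_Dep against F1_Ctl, -0.35 ± 0.27 (edgeR, adjusted p = 0.592), and the value without F1_Ctl 2 was 0.12. With library weights in limma voom, which lower the weight of libraries far from their group, the change was -0.76 with an adjusted p of 0.0398, where the alternatives ran from 0.0398 to 0.897.

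Ier2 stood at 10.3, 6.32 and 5.77 CPM in F0_Ctl, 6.63, 6.76 and 5.02 CPM in F0_Dep, 7.34, 12.1 and 7.39 CPM in F1_Ctl, and 10.8, 8.18 and 7.83 CPM in F1_Dep. The F1 groups had means of 8.93 ± 2.71 and 8.94 ± 1.62 CPM (SD, n = 3), and their log2 fold change was 0 with a 95% confidence interval of -0.57 to 0.57 (edgeR). F1_Dep lay above F0_Dep in all libraries, by 0.54 ± 0.27, with an adjusted p of 0.251 by edgeR.

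The last members act on signalling. Dusp1, a nuclear phosphatase of p38, JNK and ERK, was measured at 19.1, 18.6 and 10.5 CPM in F0_Ctl, 17.8, 12.4 and 13.6 CPM in F0_Dep, 11.8, 30.2 and 15 CPM in F1_Ctl, and 47.6, 25.1 and 19.5 CPM in F1_Dep. One library of each F1 group, F1_Ctl 2 and F1_Dep 1, set its spread, and the F1 groups overlapped. The log2 fold change of F1_Dep against F1_Ctl was 0.7 ± 0.39 (edgeR, adjusted p = 0.426), and it was 0.24 without F1_Dep 1 and 1.24 without F1_Ctl 2. F1_Dep 1 was also the library with the highest striatal and the lowest dentate marker level, 2.96 and -1.86 from the mean of 12 libraries on the log2 scale. The part of these tissues in the Dusp1 value was not tested.

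Dusp6, a cytoplasmic phosphatase specific for ERK and itself induced by ERK signalling, stood at 137, 96.6 and 46.8 CPM in F0_Ctl, 70.7, 85.2 and 70.5 CPM in F0_Dep, 64, 86.5 and 63.3 CPM in F1_Ctl, and 93.1, 107 and 110 CPM in F1_Dep. F0_Ctl spanned lower and higher levels than any other group. F1_Dep lay above F1_Ctl and F0_Dep in all libraries, by 0.54 ± 0.28 and 0.46 ± 0.28 on the log2 scale, with adjusted p of 0.406 and 0.359 by edgeR.

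Sik1 varied little within F0_Ctl and F0_Dep. It was measured at 9.87, 11.2 and 10.7 CPM in F0_Ctl, 10.6, 11.6 and 11.1 CPM in F0_Dep, 8.92, 12.7 and 11.6 CPM in F1_Ctl, and 15.7, 21.2 and 14.4 CPM in F1_Dep. Every F1_Dep library thus lay above the 9 others, a pattern whose share over all genes is not given here. The log2 fold change of Sik1 was 0.63 ± 0.17 against F1_Ctl and 0.63 ± 0.17 against F0_Dep, with adjusted p of 0.125 and 0.0601 by edgeR. Against F0_Ctl it was 0.69 ± 0.17, with an adjusted p of 0.143. DESeq2 put all 3 past the threshold, with adjusted p of 0.023, 0.0156 and 0.0137. Over all alternatives the adjusted p ran from 0.023 to 0.332 against F1_Ctl, from 0.00703 to 0.2 against F0_Dep and from 0.0137 to 0.366 against F0_Ctl.

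Gadd45b, a stress-inducible protein linked to DNA demethylation in hippocampal neurons, had log2 fold changes between 0.04 and 0.28 in the 5 comparisons of groups. Its levels were 14, 10.4 and 8.76 CPM in F0_Ctl, 11.6, 12 and 10.5 CPM in F0_Dep, 9.85, 14.7 and 9.58 CPM in F1_Ctl, and 14.2, 13 and 13.1 CPM in F1_Dep. The log2 fold change of F1_Dep against F1_Ctl was 0.24 with a 95% confidence interval of -0.18 to 0.66 (edgeR, adjusted p = 0.608).

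Comparison by comparison, stress in the F0 generation moved no member past the threshold. In F0_Dep against F0_Ctl 0 of 9 members were called by edgeR at an adjusted p under 0.05, where 0.495% of all genes were, and 0 of 9 had an unadjusted p under 0.05, against 19.7% of all genes. DESeq2 also called 0. Of the 9, 7 were lower and 2 higher, with a median of -0.14 beside -0.03 over all genes. The coefficient of variation was smaller in F0_Dep than in F0_Ctl for 9 of 9 members, as it was for 74% of all genes, and its median over the members was 10.9% and 27.2%, beside 8.23% and 14.9% over all genes. In FPKM 0 of 10 members were called by limma in the same comparison, where 21.2% of genes were.

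In F1_Dep against F1_Ctl 8 of 9 members were higher or level, with a median of 0.54 beside -0.02 over all genes, and 0 of 9 were called by edgeR, where 0.167% of all genes were. An unadjusted p under 0.05 was reached by 3 of 9 (Arc, Homer1 and Sik1), beside 14.8% of all genes. DESeq2 called 2, Homer1 and Sik1, and voom with library weights called 2, Homer1 as higher and Btg2 as lower. The shares of all genes that DESeq2 and voom called are not given, here or in the comparisons below. All 3 F1_Dep libraries lay above all 3 of F1_Ctl for 4 of 9 members (Arc, Homer1, Dusp6 and Sik1), beside 8.71% of all genes. Without F1_Dep 1 the changes of these 4 were 1.29, 0.79, 0.61 and 0.68, and without F1_Ctl 2 they were 1.85, 0.88, 0.74 and 0.77.

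F1_Dep was also set beside the F0 groups. Against F0_Ctl 0 of 9 members were called by edgeR, as were 0% of all genes, and 3 of 9 (Homer1, Dusp1 and Sik1) did not overlap, beside 9.1% of all genes. The same 3 had an unadjusted p under 0.05, beside 12.9% of all genes, with log2 fold changes of 0.62, 0.93 and 0.69, and DESeq2 called Homer1 and Sik1. In FPKM 0 of 10 members passed with limma, where 0.268% of genes did. Against F0_Dep 0 of 9 were called by edgeR where 2.88% of all genes were, and 7 of 9 lay wholly above F0_Dep, all but Nptx2 and Btg2, beside 22.6% of all genes. In that comparison 4 of 9 had an unadjusted p under 0.05, beside 22.3% of all genes, and DESeq2 called 3, Homer1, Dusp1 and Sik1. In FPKM limma called 3 of 10, Arc (1.24, adjusted p = 0.0472), Dusp1 (1.05, adjusted p = 0.0476) and Sik1 (0.58, adjusted p = 0.0276), where 12% of genes were called. These comparisons share the F1_Dep libraries and are not independent of each other.

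No member was called between the normal groups of the 2 generations. In F1_Ctl against F0_Ctl 0 of 9 were called by edgeR, as were 0% of all genes, 0 had an unadjusted p under 0.05 and DESeq2 called 0. The median was 0.04, with Arc at -0.55 ± 0.41 and Btg2 at 0.39 ± 0.27 as the extremes. For the interaction, which subtracts the change in F0 from that in F1, 0 of 9 members were called by edgeR where 0.0681% of all genes were, and DESeq2 called Homer1. Arc gave 1.64 ± 0.58 (edgeR, adjusted p = 0.244), Homer1 0.84 ± 0.23 (adjusted p = 0.152), Dusp6 0.85 ± 0.4 (adjusted p = 0.389) and Sik1 0.56 ± 0.24 (adjusted p = 0.326). Without F0_Ctl 3, the lowest library for 6 of 9 members, Homer1 at 1.04 and Dusp6 at 1.16 passed, with adjusted p of 0.00735 and 0.0465 by edgeR. Without F0_Ctl 1, the highest library of Dusp6, they were at 0.69 and 0.45 and did not pass. Over the alternatives these ran from 0.00735 to 0.36 for Homer1 and from 0.0377 to 0.608 for Dusp6.

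**Figure D4:**
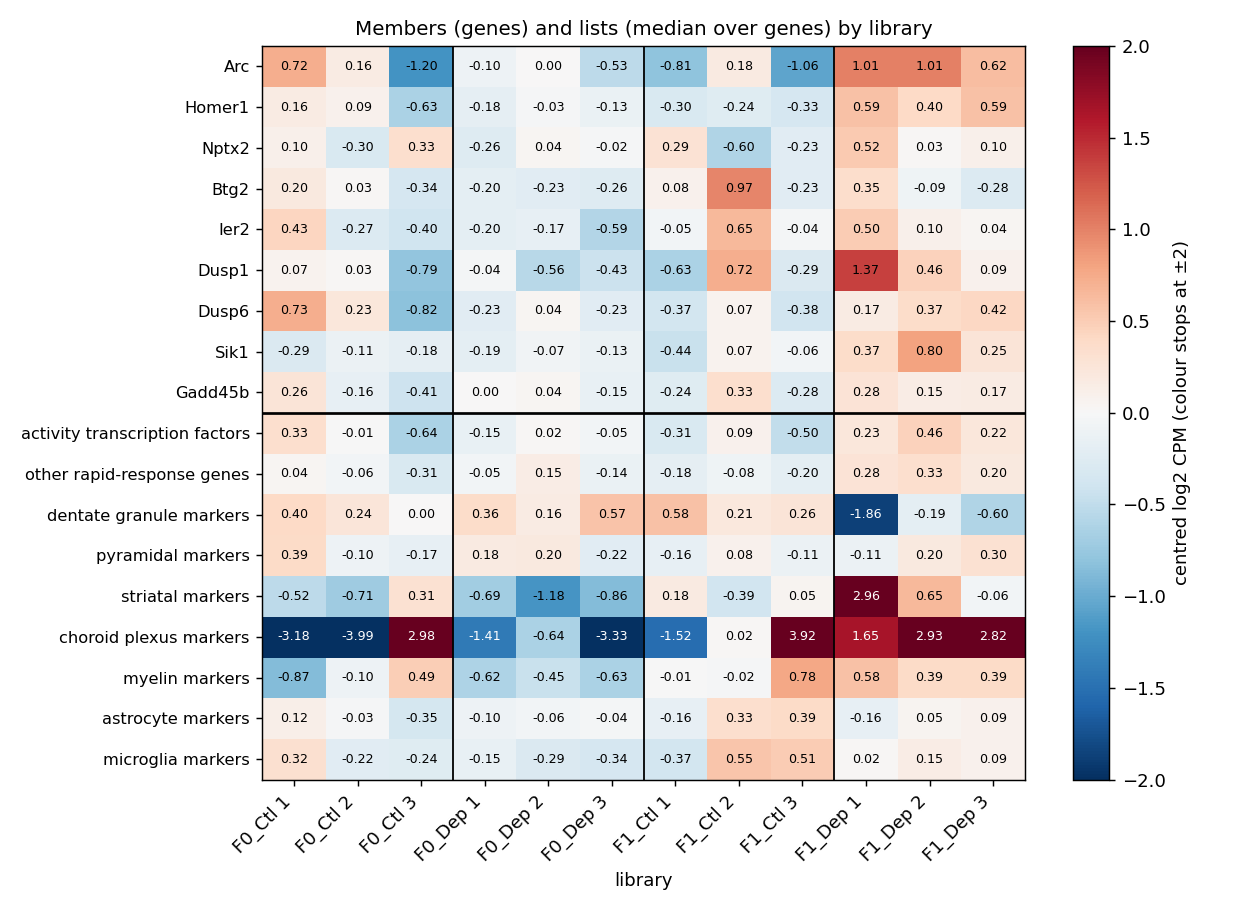
Centred log2 CPM by library (columns) of the 9 members with counts (upper rows) and the median over the genes of related and marker lists (lower rows), with 0 as the mean of 12 libraries and colours that stop at ±2. Arc is at 1.01, 1.01 and 0.62 in F1_Dep, where dentate markers are at -1.86, -0.19 and -0.6 and choroid plexus markers at 1.65, 2.93 and 2.82.

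Marker lists differed between the same groups. In F1_Dep against F1_Ctl 11 of 11 dentate markers were lower, with a median of -1.29, and 2 were called, Tdo2 and Plk5. Of 11 striatal markers 11 were higher, with a median of 1.61 and 0 called. Choroid plexus markers had a median of 0.17 in that comparison. They summed to 335, 1010 and 12400 CPM in F1_Ctl and to 3640, 6240 and 5870 CPM in F1_Dep, so that every F1_Dep library lay above F1_Ctl 1 and F1_Ctl 2 and below F1_Ctl 3. In F1_Dep against F0_Dep, where 7 of 9 members did not overlap, the median was 4.01 for choroid plexus, 2.5 for striatal markers (11 of 11 higher, 2 called), 1.03 for myelin markers (8 of 8 higher, 1 called), 0.37 for microglia markers (8 of 8 higher, 0 called) and -1.23 for dentate markers (11 of 11 lower, 2 called). F0_Ctl 3, in which Arc stood at 116 CPM, had a choroid plexus level of 2.98 on the centred log2 scale, while F0_Ctl 1 and F0_Ctl 2, with Arc at 436 and 296 CPM, had -3.18 and -3.99. F1_Ctl 3, with the highest level at 3.92, likewise had the lowest Arc of its group, 127 CPM. The order was not shared by F0_Dep 3, which had both the lowest level, -3.33, and the lowest Arc, 184 CPM, of its group. In F1_Dep both were high, with levels of 1.65 to 2.93 and Arc at 408 to 535 CPM. The part of tissue makeup in the members' values was not tested. With F0_Ctl 3, F1_Ctl 3 and F1_Dep 1 left out together, Arc, Homer1, Dusp6 and Sik1 had log2 fold changes of 1.06, 0.76, 0.53 and 0.72 in F1_Dep against F1_Ctl, and Dusp1 was at 0.09. The libraries that remained still differed in these markers, with choroid plexus levels of -1.52 and 0.02 in F1_Ctl and 2.93 and 2.82 in F1_Dep, and dentate levels of 0.58 and 0.21 in F1_Ctl and -0.19 and -0.6 in F1_Dep.

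The profile of Arc over the 12 libraries was compared with that of 13273 genes with a mean of at least 2 CPM, as the root mean square difference of centred log2 CPM. The closest were Egr1 (0.24) and Nr4a1 (0.27), transcription factors of the same activity response, Htr1b (0.27), a serotonin receptor, Egr4 (0.28) and Trib1 (0.29), a pseudokinase. Among the members Dusp6 (0.41), Homer1 (0.44) and Dusp1 (0.46) were nearer to Arc than Gadd45b (0.54), Sik1 (0.58), Ier2 (0.59), Btg2 (0.69) and Nptx2 (0.77), and the median over all genes was 0.77. Egr1 averaged 282 ± 169 CPM in F0_Ctl, 175 ± 40.4 CPM in F0_Dep, 181 ± 38.6 CPM in F1_Ctl and 473 ± 61.3 CPM in F1_Dep (SD, n = 3), with a log2 fold change of 1.39 ± 0.38 in F1_Dep against F1_Ctl (edgeR, adjusted p = 0.132).

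Other genes of the activity response were read from lists. Of 20 activity transcription factors 17 were higher in F1_Dep than in F1_Ctl, with a median of 0.46 and 0 called by edgeR, and the smallest unadjusted p belonged to Jun (-0.9, the AP-1 subunit, lower), Egr1 (1.39) and Nr4a1 (1.09). Of 19 other rapid-response genes 17 were higher, with a median of 0.43, and 2 passed. Plk3, a polo-like kinase, was at 10 ± 0.566 CPM in F1_Ctl and 19.2 ± 2.16 CPM in F1_Dep (SD, n = 3), higher by 0.94 ± 0.12 on the log2 scale (edgeR, adjusted p = 0.0308), and Per1, a clock gene that both CREB and glucocorticoids induce, rose by 0.8 ± 0.13 (adjusted p = 0.0433). Among all genes 46.9% were higher in this comparison. Plk3 also passed in the interaction, at 1.49 ± 0.18 (edgeR, adjusted p = 0.0161).

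Genes of the later and secreted response had a median near that of all genes. Of 14 such genes 9 were higher in F1_Dep than in F1_Ctl, with a median of 0.07, and 1 was called, Vgf, the precursor of neuropeptides released on activity. Vgf was at 142 ± 7.93 CPM in F1_Ctl and 225 ± 28.1 CPM in F1_Dep (SD, n = 3), a rise of 0.66 ± 0.11 on the log2 scale (edgeR, adjusted p = 0.0438), and it passed in the interaction at 1.07 ± 0.16 (edgeR, adjusted p = 0.0367). Of 11 genes of ERK feedback 9 were higher, with a median of 0.23, and the 1 called gene, Spry1, an inhibitor of receptor tyrosine kinase signalling, fell by 0.77 on the log2 scale (edgeR, adjusted p = 0.048). Paralogues of the members had a median of -0.04 over 24 genes with 0 called, and the smallest unadjusted p in that list belonged to Dusp5 (0.79), Gadd45a (0.79) and Npas2 (0.82).

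Upstream regulators and binding partners also had medians near that of all genes in the same comparison. Of 19 genes for CREB, SRF, MEF2 and their kinases 11 were higher and 0 called, with a median of 0.05, and among the smallest unadjusted p were those of Mapk3 (-0.59) and Map2k1 (-0.44), kinases of the ERK cascade. Of 15 partners of the Arc, Homer1 and Nptx2 proteins 6 were higher and 0 called, with a median of -0.04, and among the smallest unadjusted p were those of Sh3gl1 (-0.27) and Dnm2 (0.26), proteins of endocytosis.

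The list of glucocorticoid-induced genes held called genes in both generations. Of 11 such genes 10 were higher in F0_Dep than in F0_Ctl, with a median of 0.49, and 10 were higher in F1_Dep than in F1_Ctl, with a median of 0.59. Among all genes 45.4% and 46.9% were higher in these comparisons. Sgk1, Per1 and Errfi1 also stand in the list of other rapid-response genes. Plin4 and Cdkn1a, a lipid droplet protein and a cell cycle inhibitor, were called as higher by edgeR in both comparisons, while the members' medians were -0.14 and 0.54. The difference between the lists was not tested.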

How the data were processed

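Expected counts, which are estimates and can hold fractions, were deposited by the authors for 35812 gene IDs in 12 libraries, and FPKM values for 9 of them. The libraries came from a stranded mRNA kit, per the labels' protocols. Per the submitters' processing notes the tools include HISAT2 and Cufflinks 2.2.1 and the build is mm10, with no role given for either tool. The counting tool, its annotation and its use of strand were not given in the sources used here, so reads of overlapping genes cannot be told apart.

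IDs of 1 symbol were summed (37 IDs), and 610 IDs without a symbol were kept under their own ID. Per-sample columns left unused numbered 0. Counts were rounded, scaled by TMM, filtered by filterByExpr and fitted over 4 groups with edgeR 4.0.16 (R 4.3.3; quasi-likelihood F-test, Benjamini-Hochberg adjusted p under 0.05 over 16163 genes). CPM uses these TMM-scaled totals, and centred log2 CPM a prior count of 2. Standard errors were computed as the fold change over the root of F. FPKM was tested with limma 3.58.1 on log2(FPKM + 1) over 13820 genes that reached an FPKM of 1 in 3 or more libraries. Both were tested on simulated data. Alternatives included DESeq2 1.42.0, voom, other scalings and filters, and leaving out libraries.

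The members, the 16 gene lists and the tests were chosen with earlier results of these data known. Some genes, such as Dusp5 and Nptx1, stand in several lists, so counts from different lists are not independent. All members were named in every comparison, and from each list the called genes or, with none called, up to 3 with the smallest p in F1_Dep against F1_Ctl. Some genes this rule took are left out and not reported here. Deviations of same-numbered libraries correlated at -0.18 to 0.14, except for F0_Ctl 3 and F1_Ctl 3 at 0.5. In no comparison were all 3 pairs above 0.1, so numbers were not treated as pairs. Replicates differed beyond sampling noise (chi-square per gene 4.87 to 84). Libraries were fitted as independent mice, though sons within a group may share a father or litter.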

Additional observations from a re-analysis of the deposited data

How the results depend on the processing

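Over 57 log2 fold changes of single members and 1017 alternative values, 928 kept direction and side of the threshold, 41 newly passed it and 48 changed sign, and none of the 48 was called. Groups of 3 mice limit all of this. In its main setting edgeR called 0 of 9 members in each of 6 comparisons. Other tools called more, and so did edgeR under other settings. In F1_Dep against F1_Ctl 2 members were called by DESeq2, 2 by voom with library weights, 1 without the low count filter, 1 at a threshold of 0.1, 1 with F0_Ctl 3, F1_Ctl 3 and F1_Dep 1 left out together, and 0 to 1 when single libraries were left out (1 without F1_Ctl 1). In F1_Dep against F0_Ctl DESeq2 called 2. In F1_Dep against F0_Dep 3 were called by DESeq2, 1 without TMM, 1 with upper quartile scaling, 1 without the low count filter, 5 with the compared groups fitted alone, 5 by voom, 2 at a threshold of 0.1, 2 with the 3 libraries left out, and 3 in FPKM with a pseudocount of 1 and 3 with 0.1. In the interaction 1 was called by DESeq2, 1 by voom, 2 with the 3 libraries left out, and 0 to 2 when single libraries were left out (2 without F0_Ctl 3). The cause of these differences was not tested. The share of all genes called is given for the main edgeR fit and for FPKM with a pseudocount of 1 alone. Counts of members from the other settings have no such share beside them. With the replicate block 0 members were called in counts in any comparison, and Npas4 in FPKM passed in F1_Dep against F0_Dep, at 1.05 (limma, adjusted p = 0.0496), as it did without F1_Dep 3.

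Sign changes, as log2 values and with causes not tested, were as follows. In F0_Dep against F0_Ctl Homer1 was at 0.42 in FPKM with a pseudocount of 1, 0.43 with 0.1, 0.42 without the filter and 0.01 by voom, Gadd45b at -0.08, -0.09 and -0.08 in the 3 FPKM settings and -0.09 with the 3 libraries left out, Sik1 at -0.07, -0.09 and -0.07 in the FPKM settings, and Nptx2 at 0.02 with the 3 libraries left out. In F1_Dep against F0_Ctl Btg2 was at -0.07 by voom and -0.3 with the 3 libraries left out, where Dusp6 was at -0.1 and Ier2 at -0.05. In F1_Dep against F1_Ctl Ier2 was at -0.01 with upper quartile scaling, -0.31 by voom and -0.28 with the 3 libraries left out. In F1_Ctl against F0_Ctl Gadd45b was at -0.01 without TMM and Nptx2 at 0.01 with the 3 libraries left out. In the interaction voom gave -0.08 for Gadd45b and -0.15 for Ier2.

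Leaving out 1 library turned the sign of the following, given as ranges. In F0_Dep against F0_Ctl Arc ran from -0.65 to 0.18, Dusp1 from -0.37 to 0.01, Dusp6 from -0.62 to 0.09, Gadd45b from -0.09 to 0.26, Homer1 from -0.23 to 0.13, Ier2 from -0.43 to 0.04 and Nptx2 from -0.29 to 0.02. In F1_Ctl against F0_Ctl Btg2 ran from -0.07 to 0.6, Dusp1 from -0.29 to 0.49, Gadd45b from -0.21 to 0.26, Ier2 from -0.04 to 0.57 and Sik1 from -0.07 to 0.2. In F1_Dep against F0_Ctl Btg2 ran from -0.16 to 0.17 and Dusp6 from -0.17 to 0.54. In F1_Dep against F1_Ctl Btg2 ran from -0.55 to 0.12 and Ier2 from -0.16 to 0.31. In the interaction Btg2 ran from -0.36 to 0.31, Gadd45b from -0.03 to 0.44 and Ier2 from -0.04 to 0.58.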

Other observations

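In F1_Dep against F0_Dep, a comparison that called 2.88% of all genes with a median of 0.01, some partners and regulators of the members were called. Of 15 partners of Arc, Homer1 and Nptx2 proteins 11 were lower in F1_Dep than in F0_Dep, with a median of -0.28, and 2 were called by edgeR, among them Camk2b (-0.6, adjusted p = 0.0356), a kinase that binds Arc. Of 19 upstream genes 16 were lower, with a median of -0.19, and Crtc1, the CREB coactivator that Sik1 acts on, was called at -0.55 (edgeR, adjusted p = 0.0418). Ep300, a histone acetylase recruited by CREB, was called in F0_Dep against F0_Ctl, at 0.61 with an adjusted p of 0.0474 by edgeR. Most genes of both lists were higher in F0_Dep than in F0_Ctl. These were 11 of 15 partners, with a median of 0.17, and 14 of 19 upstream genes, with a median of 0.21. F1_Dep against F0_Ctl gave medians of -0.1 for the partners and -0.05 for the upstream genes. Relative to F0_Ctl, Camk2b and Crtc1 were each at 0.37 in F0_Dep. Their F1_Dep values on that scale were -0.22 and -0.18, none of them called by edgeR.

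Among paralogues of the members Nptx1 was lower (-0.62, adjusted p = 0.0342) and Gadd45a higher (1.06, adjusted p = 0.0457) in F1_Dep than in F0_Dep by edgeR, while Nptx2 and Gadd45b were not called. In the same comparison Etv5, a transcription factor induced by ERK signalling, was higher (0.97, adjusted p = 0.0454), Il17rd, an ERK pathway inhibitor, was lower (-1.13, adjusted p = 0.0207), Trib1 was higher (1.19, adjusted p = 0.0292), Arl4d was higher (0.99, adjusted p = 0.0207) and Jun was lower (-1.16, adjusted p = 0.0288), all by edgeR. Plk3 (1.09), Vgf (0.68) and the glucocorticoid-induced Tsc22d3 (0.66) were called as higher there too. Relative to F0_Ctl, Nptx1 was at 0.58 in F0_Dep and at -0.04 in F1_Dep. Gadd45a was at -0.29 and 0.78 in the same 2 groups, and none of these values was called by edgeR.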
